A study of Rattus norvegicus with 12 samples.

Results

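Homozygous Belgrade rats (b/b) were compared with their heterozygous counterparts (+/b) in the duodenum, the first segment of the small intestine and the main site of dietary iron uptake. The comparison used the 3 arrays titled as b/b duodenum and the 3 titled as +/b duodenum, which are 6 of the 12 arrays of the study. The other 6 arrays hold jejunum of the same groups of rats, as the design text gives it. The tissue was a scrape of the segment, which takes epithelium together with the underlying mucosa, and total RNA was hybridised to Affymetrix rat arrays. Each array received RNA from 1 group of rats, so a replicate is a group of rats and not a single animal. The p-values rest on a spread between such groups that was pooled over the duodenum and jejunum arrays. All 12 arrays were counted as independent, although the segments come from the same groups of rats. The b allele is a recessive mutation of Slc11a2, known to exchange 1 amino acid of the protein without removing the transcript. Both groups therefore carry at least 1 b allele, and no +/+ rats were among the arrays analysed here. The sources used here do not give age, sex, diet or the number of rats in a group.

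Slc11a2 encodes the divalent metal transporter DMT1, which carries ferrous iron across the brush border of the enterocyte. Before that step the ferric reductase encoded by Cybrd1 reduces dietary iron, and afterwards ferroportin, the product of Slc40a1, exports iron at the basolateral side with the help of the ferroxidase hephaestin (Heph). Rats homozygous for b are known to absorb little iron and to have a microcytic anaemia with many reticulocytes. Iron need reaches the duodenum through several known routes, among them the iron-responsive elements of transcripts such as Tfrc and Slc11a2, the hormone hepcidin, and the hypoxia-inducible factor HIF-2 alpha, encoded by Epas1.

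Signals are given on the scale of the arrays after each was brought to a 2% trimmed mean of 500, in arbitrary units and in the order of replicates 1, 2 and 3. As deposited, 10 of the 12 arrays already had that trimmed mean. In +/b duodenum it was 51.6 for replicate 2 and 126.6 for replicate 3, and these arrays were multiplied by 9.69 and 3.95, which also multiplies the noise of their dim probe sets. Scaled medians of the 6 duodenum arrays lay between 108.4 and 181.5. Replicate 1 of b/b stood apart from the rest, its median Spearman correlation with the remaining 5 duodenum arrays being 0.831, against 0.864 to 0.897 for each of the others. The brightest signal fell with the replicate number in both genotypes. It was 104403 and 145043 in replicate 1, 86074 and 48031 in replicate 2, and 51250 and 33082 in replicate 3 of +/b and b/b, respectively. In jejunum it fell in the same order, with 85087, 57423 and 32318 in +/b and 95180, 52551 and 30742 in b/b. No detection call comes with the values used here, so a low signal cannot be told from background.

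The labelled tissue was checked against genes of the proximal intestine. Pdx1, a homeobox factor of duodenum and pancreas, had signals of 539 to 2707 in the duodenum arrays and 15.1 to 126.6 in the jejunum arrays. S100g, encoding a calbindin of the enterocyte, spanned 13599 to 35924 against 793 to 1817. Plb1, a brush border phospholipase of more distal segments, ran the other way, with 29.2 to 101.0 in duodenum and 823 to 9434 in jejunum. The 6 duodenum arrays thus did not overlap with the jejunum arrays for these genes. Within the duodenum, S100g was lowest in b/b replicate 1 (13599) and Pdx1 was highest in b/b replicates 2 and 3 (1777 and 2707). The values of Pdx1 did not overlap between the genotypes, with a log2 difference of 1.06 ± 0.53 (SE) and limma adjusted p of 0.791. The 11 tested genes of duodenal identity, Cybrd1 and Pdx1 among them, had a median log2 difference of 0.14. Of these, 8 were above 0, as were 45.8% of all genes. In 2 of the 11, Cybrd1 and Pdx1, every b/b array lay above every +/b array, as in 3.38% of all genes. The mean log2 level of the list was 10.65 to 10.80 in the +/b arrays and 11.10 to 11.46 in the b/b arrays. These means include Cybrd1, whose difference was 4.05. No mean was taken without it, so they do not show that the other members differ. Whether the scrapes of the genotypes covered the same stretch of the duodenum was not tested.

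Of 17694 probe sets tested, 7 passed the threshold of an adjusted p of 0.05 (limma, Benjamini-Hochberg), which is 0.0396% of them, and all 7 were higher in b/b. None was lower in b/b. Without adjustment, 1092 probe sets (6.17%) had a p under 0.05, with 443 higher (2.5%) and 649 lower in b/b (3.67%). This split depended on the scaling: with arrays centred on their median it was 413 higher and 318 lower, and after quantile normalization 558 higher and 498 lower. The 3 b/b values did not overlap with the 3 +/b values in 1540 probe sets, or 8.7%. Taking 1 probe set for each of the 10067 genes tested, 3 genes were called (0.0298%), the median log2 difference was -0.03, and 45.8% of genes had a difference above 0. A difference of at least 1 in either direction was found for 352 genes.

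**Figure D1:**
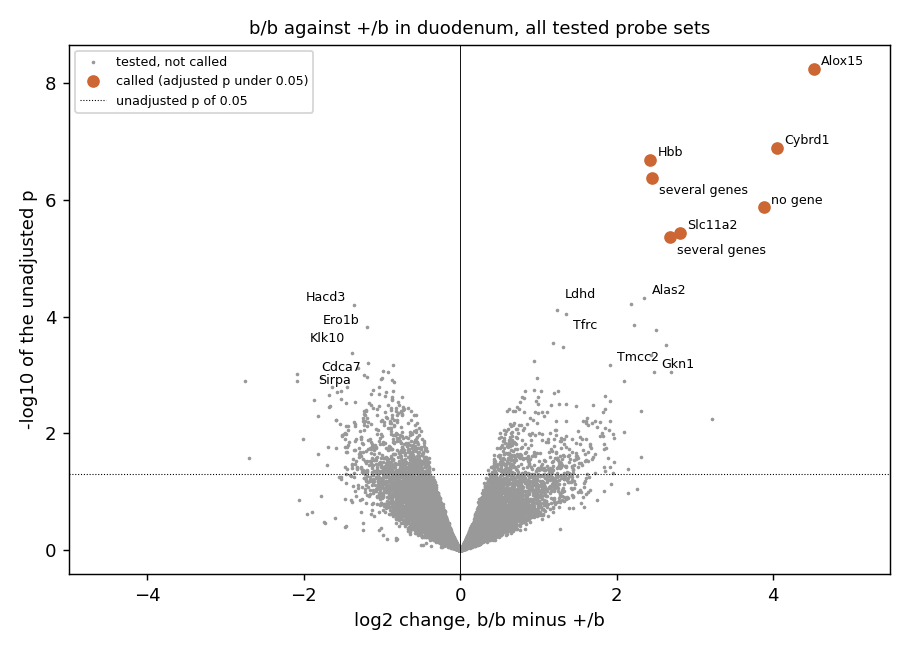
Each point is 1 of the 17694 tested probe sets, with the log2 difference of b/b minus +/b in duodenum on the horizontal axis and -log10 of the unadjusted limma p on the vertical axis. The 7 called probe sets (orange) all lie to the right, at log2 differences from 2.43 to 4.52. The labelled grey points were not called. They are the 5 genes of smallest p in each direction among those with a log2 difference of at least 1 and no overlap between groups.

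Cybrd1, the duodenal ferric reductase, had signals of 599.8, 771 and 1157 in +/b and 5752, 22238 and 20079 in b/b. Every b/b array lay above every +/b array, but b/b replicate 1 stood well below the other two. Cybrd1 rose by 4.05 ± 0.41 on the log2 scale (SE, n = 3 arrays per group; 95% interval 3.16 to 4.94; limma adjusted p = 0.00112). Without b/b replicate 1, the array that was also lowest in S100g, the change was 4.67, and it was 3.70 at the lowest over the 6 arrays left out in turn. A probe set with no annotated gene, 1376344_at, had nearly the same profile over the arrays, with 489.99, 415 and 634 in +/b and 2842, 12989 and 12207 in b/b. It rose by 3.88 ± 0.48 (adjusted p = 0.00469). Its identity is not known here.

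Slc11a2 was read by a pair of probe sets. The dimmer one, 1388059_a_at, had 593, 761 and 1156 in +/b and 3341, 7297 and 7824 in b/b. The groups did not overlap, and b/b replicate 1 was again the lowest of its group. This probe set rose by 2.81 ± 0.38 (adjusted p = 0.0107). The brighter one, 1367877_at, had 3056, 3839 and 6080.1 in +/b and 28450.4, 27501 and 21653 in b/b. Here b/b replicate 1 was the highest array, and the log2 difference was of like size, 2.63 ± 0.55, but it was not called (adjusted p = 0.312). Leaving out single arrays ended the call on the dimmer probe set in 4 of 6 cases: replicate 1 of +/b (adjusted p = 0.0824), replicate 2 of +/b (0.0709), replicate 2 of b/b (0.113) and replicate 3 of b/b (0.0788), with log2 changes of 2.59 to 2.77. When the fit used the 6 duodenum arrays alone, the brighter probe set was called as well (adjusted p = 0.0246).

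Tfrc encodes the transferrin receptor, through which cells, including those of the crypt, take up iron from blood. Its brighter probe set had 4084, 2137 and 3034 in +/b and 6308, 8653 and 8142 in b/b, and the other 937, 289 and 1034 in +/b and 1783, 1584 and 1308 in b/b. On both, every b/b array exceeded every +/b array. The log2 differences were 1.35 ± 0.25 and 1.21 ± 0.40, which did not pass the threshold over all probe sets (adjusted p = 0.134 and 0.748).

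To show what lies upstream of these genes, 300 bases around their transcription starts are printed from RefSeq (GRCr8), from 250 bases before the start to 50 after it, 5′ to 3′ on the strand of the gene. Capitals mark matches, on either strand, to ACGTG or GCGTG, the core of the site to which hypoxia-inducible factors bind. On the reverse strand these read CACGT and CACGC. The windows are chr3:76342343-76342642 (plus strand) for Cybrd1, chr7:133417739-133418038 and chr7:133418890-133419189 (both minus strand) for the 2 listed starts of Slc11a2, and chr11:81690269-81690568 (minus strand) for Tfrc.
Cybrd1: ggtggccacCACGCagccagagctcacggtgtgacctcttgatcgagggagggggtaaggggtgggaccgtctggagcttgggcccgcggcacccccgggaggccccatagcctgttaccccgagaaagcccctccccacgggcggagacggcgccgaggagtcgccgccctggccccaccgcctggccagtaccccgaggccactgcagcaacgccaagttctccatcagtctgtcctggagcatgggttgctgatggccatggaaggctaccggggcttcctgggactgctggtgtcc
Slc11a2, first window: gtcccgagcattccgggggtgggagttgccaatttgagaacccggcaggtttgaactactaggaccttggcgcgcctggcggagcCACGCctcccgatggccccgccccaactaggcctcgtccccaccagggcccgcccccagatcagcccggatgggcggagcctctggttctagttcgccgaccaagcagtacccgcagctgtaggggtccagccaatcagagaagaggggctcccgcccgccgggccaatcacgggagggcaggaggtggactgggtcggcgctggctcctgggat
Slc11a2, second window: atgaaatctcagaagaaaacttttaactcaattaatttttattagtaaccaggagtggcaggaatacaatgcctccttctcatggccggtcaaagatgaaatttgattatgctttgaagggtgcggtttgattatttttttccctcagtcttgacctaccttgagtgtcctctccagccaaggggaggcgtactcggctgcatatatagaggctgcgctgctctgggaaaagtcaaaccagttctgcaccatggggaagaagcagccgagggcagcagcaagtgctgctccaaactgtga
Tfrc: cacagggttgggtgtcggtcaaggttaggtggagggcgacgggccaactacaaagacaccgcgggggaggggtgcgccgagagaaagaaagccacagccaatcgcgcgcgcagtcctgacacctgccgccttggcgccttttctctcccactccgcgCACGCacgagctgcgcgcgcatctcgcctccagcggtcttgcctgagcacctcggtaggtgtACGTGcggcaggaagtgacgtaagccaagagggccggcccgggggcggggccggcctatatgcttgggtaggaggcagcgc
Cybrd1 held 1 match to GCGTG, as did the first window of Slc11a2, while the second held none. Tfrc held 1 match to each core. Such matches are common: 41.6% of the 33469 promoter windows of the same length held at least 1 of the cores, 29.7% GCGTG and 19.3% ACGTG. The window of Hbb, chr1:167663672-167663971 on the minus strand, held none, and none of these windows held AGATAA or TGATAA, forms of the site bound by GATA factors, which 11.6% and 9.03% of all windows hold. A match to these letters is a description and not evidence that a factor binds there. No window was matched for Alox15.

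Among 16 tested genes of iron transport, reduction and storage, 1 was called on its brightest probe set (Cybrd1), 6 had an unadjusted p under 0.05 with b/b higher and none with b/b lower, against 2.75% and 3.39% of all genes. The 6 became 5 on leaving out +/b replicate 2 or any single b/b array, and without +/b replicate 3 there was 1 lower gene. The median log2 difference of the 16 was 0.41, against -0.03 over all genes. It lay between 0.12 and 0.69 when 1 array was left out at a time, the lowest without b/b replicate 1, and was 0.29 without both arrays deposited unscaled. Slc40a1, the exporter ferroportin, had 7077, 6276 and 11390.1 in +/b and 8849, 21417 and 15909 in b/b. The groups overlapped, since b/b replicate 1 lay below +/b replicate 3, and the difference was 0.86 ± 0.46 (adjusted p = 0.804). Heph, the ferroxidase that works with it, had 11752, 14310.3 and 14555 in +/b and 14761, 14686 and 12964 in b/b, a difference of 0.07 ± 0.19 with a 95% interval from -0.33 to 0.46.

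Other members of the list were not called. Ncoa4, the cargo receptor that delivers ferritin for breakdown, had 12096, 9169 and 326 in +/b and 17244, 17233 and 15692 in b/b. The +/b replicate 3 array, 1 of those deposited unscaled, was far below the other 5. The difference of 2.31 ± 0.93 was 0.66 without that array. Slc39a14, a zinc and iron importer, was likewise lowest there, with 5450.4, 2949 and 639 in +/b and 4673, 6535 and 8673 in b/b and a difference of 1.55 ± 0.54, while its dimmer probe set gave 0.36 ± 0.36. Bmp6, a ligand upstream of hepcidin, was dim, with 110.1, 49.5 and 110.4 in +/b and 203, 132 and 164 in b/b and a difference of 0.83 ± 0.38. Fbxl5, the iron sensor that degrades iron regulatory protein 2, had 2550.4, 2778 and 2935 in +/b and 2328, 2090.4 and 2254 in b/b. Its b/b values lay just under all +/b values, with a difference of -0.31 ± 0.16 (adjusted p = 0.804).

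**Figure D2:**
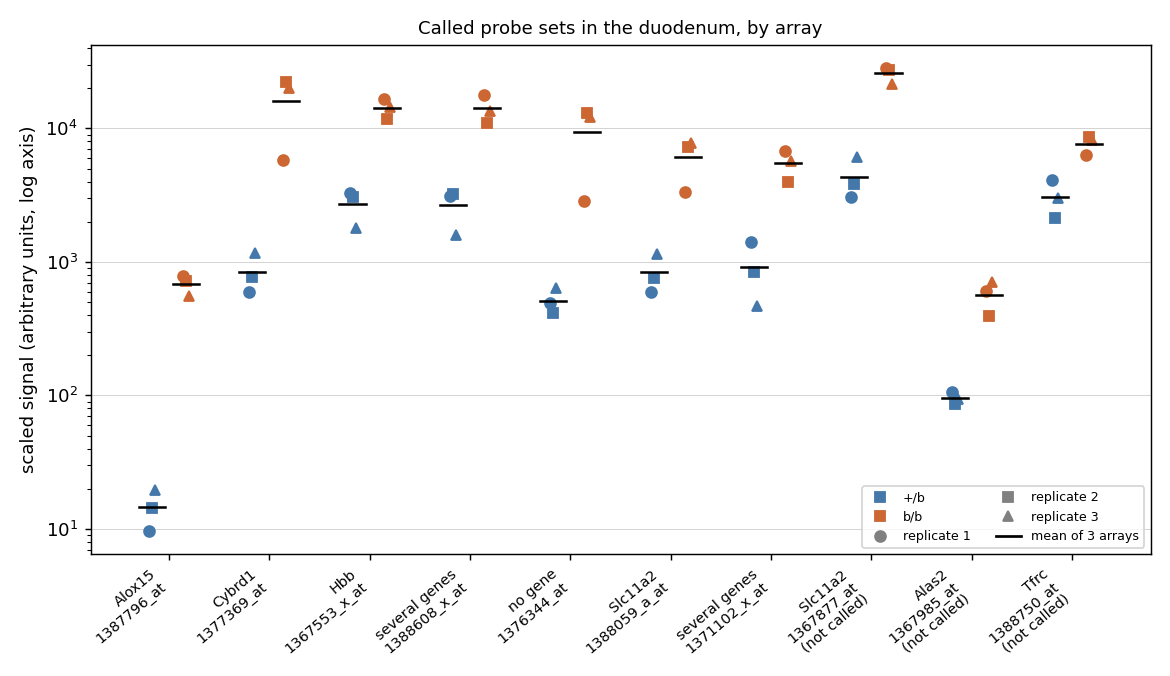
Points give the scaled signal of each duodenum array (log axis, arbitrary units) for the 7 called probe sets, for the brighter probe set of Slc11a2 and for Alas2 and Tfrc, which were not called. Symbols mark the replicate and bars the mean of 3 arrays. In each of the 10 columns the b/b arrays (orange) lie above the +/b arrays (blue), and for Cybrd1, 1376344_at and the called probe set of Slc11a2 the b/b replicate 1 (circle) is the lowest of its group.

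Alox15 had the smallest p of the comparison. It encodes arachidonate 15-lipoxygenase, an enzyme that oxygenates polyunsaturated fatty acids and that is also known from the breakdown of mitochondria in maturing reticulocytes. Its signals were 9.62, 14.4 and 19.4 in +/b and 789, 714 and 557 in b/b. The +/b arrays were at the bottom of the signal range and the b/b arrays close together. Alox15 rose by 4.52 ± 0.36 (adjusted p = 9.88e-05). Since the +/b signals are near the 16 units added before the logarithm, the size depends on that number: the change was 5.51 with 1 unit added and 3.25 with 64. It passed the threshold under each of the 20 alternative settings run. Alox15 was the sole called gene among 16 tested genes of eicosanoid metabolism, whose median difference was -0.19. Ptgs1, which encodes cyclooxygenase 1, had 535, 374 and 389.8 in +/b and 279.7, 242 and 293 in b/b. All b/b values lay below all +/b values, with a difference of -0.63 ± 0.28 (adjusted p = 0.789). Pla2g2a, a secreted phospholipase of Paneth cells, had 1817, 805 and 508 in +/b and 842, 255 and 144 in b/b, with overlap between the groups and a difference of -1.47 ± 0.64.

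The rest of the called set was Hbb with the probe sets 1388608_x_at and 1371102_x_at. Hbb, encoding beta globin, had 3274, 3081 and 1792 in +/b and 16621, 11844 and 14488 in b/b on 1367553_x_at and rose by 2.43 ± 0.26 (adjusted p = 0.00121). The b/b arrays spanned 11844 to 16621 and no +/b array exceeded 3274. Also called were 1388608_x_at, with 3106, 3252 and 1598 in +/b and 17764, 11030.1 and 13557 in b/b and a change of 2.45 ± 0.28, and 1371102_x_at, with 1420.2, 842 and 471 in +/b and 6814, 3954 and 5748 in b/b and a change of 2.68 ± 0.37. Both are annotated to several genes and are not named here. The suffix of these probe sets marks probes that can also bind related transcripts, so related genes cannot be kept apart. Without both +/b arrays that were deposited unscaled, Alox15 and Cybrd1 kept their calls, whereas Hbb (2.11, adjusted p = 0.0555), 1388608_x_at (2.15), 1371102_x_at (1.91), Slc11a2 (3.24) and 1376344_at (3.93) did not. The last 2 of these changes were at least as large as with all arrays. That on 1371102_x_at also ended on leaving out replicate 2 of +/b (adjusted p = 0.0709) or replicate 1 (0.0627) or 3 (0.0788) of b/b.

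Of 9 tested genes of red cells and reticulocytes, Hbb was called and 8 had a difference above 0, against 0.0298% and 45.8% of all genes. The median was 0.82, with 0.39 without +/b replicate 3 and 1.26 without +/b replicate 2. Alas2, the erythroid form of the first enzyme of heme synthesis, had 105, 86.04 and 94.3 in +/b and 606, 393 and 702 in b/b. The genotypes did not overlap, and the difference of 2.35 ± 0.41 missed the threshold (adjusted p = 0.105) but passed it with 64 units added before the logarithm (adjusted p = 0.022). Tmcc2 had 50.6, 249.5 and 129 in +/b and 513, 413 and 587 in b/b and a difference of 1.91 ± 0.44. Membrane proteins of the red cell were dim and did not separate the groups. Slc4a1, the anion exchanger band 3, had 128, 149 and 11.8 in +/b and 304, 177 and 118 in b/b, and Rhd, a blood group antigen, had 11.2, 146 and 107 in +/b and 280.3, 105 and 152 in b/b. The summed signal of the 9 genes was 7923 to 10154 in +/b and 24086 to 25999 in b/b. Most of each sum came from Hbb and from Car2, a carbonic anhydrase that enterocytes also express. More blood in the scrape and more globin transcript per blood cell cannot be told apart in such samples, nor can, for any gene here, fewer cells of a type and less RNA per cell.

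Alas1, the form of the same enzyme found in most tissues, had 4297, 3825 and 2919 in +/b and 9338, 7141 and 5635 in b/b. Every b/b array exceeded every +/b array, with a difference of 0.99 ± 0.24 (adjusted p = 0.554). Among 19 genes of heme synthesis, transport and breakdown, Alas1 and Alas2 were the only members with an unadjusted p under 0.05, both higher, against 2.75% of all genes. There were 4 such members without b/b replicate 1. The list median was 0.23, and leaving out arrays brought it to 0.10 (+/b replicate 3), 0.11 (b/b replicate 1) and 0.0061 (both arrays deposited unscaled). Hmox1, heme oxygenase 1, had 394, 666 and 779 in +/b and 352, 1951 and 1236 in b/b, with high values in b/b replicates 2 and 3 and the lowest of all in b/b replicate 1. Fech, the last enzyme of heme synthesis, had 668, 788 and 525 in +/b and 744, 730.2 and 555 in b/b and a difference of 0.04 ± 0.22. The heme importers and exporters Slc46a1 and Flvcr1 differed by -0.23 and 0.07.

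Genes beyond the called set were ranked by p among those with a log2 difference of at least 1 and no overlap between groups. There were 71 such genes higher and 100 lower in b/b, and the 25 of smallest p in each direction are described. Of those higher, 21 were not called, with log2 differences of 1.05 to 3.21 and adjusted p of 0.105 to 0.702. The 25 lower genes had differences of -2.08 to -1.01 and adjusted p of 0.111 to 0.660. At the threshold none of these genes can be named as changed. In the jejunum, whose arrays entered the ranking only through the shared filter and estimate of spread, 14 of the 21 had a difference above 0, as did 43.4% of all genes, and 2 of them an unadjusted p under 0.05, against 0.556% of all genes. Of the 25 lower genes, 15 were below 0 in jejunum, against 56.6% of all genes, and 1 had an unadjusted p under 0.05, against 0.705%.

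Among genes higher in b/b, Ldhd, a mitochondrial D-lactate dehydrogenase, followed the called genes and Alas2 in the order of p. Its signals were 1808, 2139.6 and 1893 in +/b and 3209, 5578 and 5456 in b/b, and on another probe set 1278, 1347 and 1262 in +/b and 2137, 3745 and 4229 in b/b. On both probe sets the +/b arrays lay close together and under every b/b array. The differences were 1.24 ± 0.22 (adjusted p = 0.125) and 1.31 ± 0.28. Without b/b replicate 1 the former was called (adjusted p = 0.0118).

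Dcaf17, which encodes a substrate receptor of an E3 ubiquitin ligase, is the protein-coding gene directly before Cybrd1 in the RefSeq order of its chromosome. It had 376, 758 and 676 in +/b and 818, 1551 and 1941 in b/b on one probe set and 139, 72.01 and 149 in +/b and 199, 228 and 244 in b/b on another. Both separated the genotypes, with differences of 1.20 ± 0.32 and 0.87 ± 0.35 (adjusted p = 0.66 and 0.789). Dync1i2, the next gene on the other side of Cybrd1, had 5299.99, 5303 and 4850.2 in +/b and 4364, 4642 and 4978 in b/b and a difference of -0.14 ± 0.19.

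The other higher genes are given singly. Slc23a2, a sodium-dependent transporter of ascorbate, had 1473, 1137 and 235 in +/b and 2094, 3417 and 2757 in b/b. Its difference was 1.85 ± 0.50, with +/b replicate 3 far below the other arrays, and its dim probe set gave 0.27 ± 0.58. Ctsd, the lysosomal protease cathepsin D, had 871, 302 and 1097 in +/b and 1233, 2219 and 2447 in b/b and a difference of 1.48 ± 0.42. Scd2, a stearoyl-CoA desaturase, had 148, 48.4 and 318 in +/b and 425, 506 and 705 in b/b and a difference of 1.85 ± 0.53. For both genes +/b replicate 2 was the lowest array. Sesn3, a stress-responsive sestrin, had 117, 176 and 189 in +/b and 264, 419 and 567 in b/b and a difference of 1.25 ± 0.33. For Hm13, a signal peptide peptidase, the probe sets disagreed: one gave 2.69 ± 0.64 from +/b signals of 25.3, 27.2 and 9.76, and the brighter one gave -0.22 ± 0.25. Rdm1, Igsf8, Bpifa5, Tmem204 and Fam210a were dim on the ranked probe sets, with +/b signals down to 2.86 units. Their differences there ran from 1.57 to 2.31, but a brighter probe set of Fam210a gave -0.24 ± 0.18. Zfp503, Zfyve1 and Mon1b gave 1.91 ± 0.53, 1.05 ± 0.31 and 1.22 ± 0.38 on the ranked probe sets, but other probe sets of each gave smaller values, down to -0.17 for Zfp503, 0.28 for Zfyve1 and -0.83 for Mon1b.

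Gkn1 and Gkn2 encode proteins secreted by surface mucous cells of the stomach, and Tff1 a trefoil peptide of the same cells. Gkn1 had 120.5, 177 and 42.3 in +/b and 229, 847 and 1239 in b/b, Gkn2 had 18.4, 20.9 and 3.51 in +/b and 37.9, 453 and 768 in b/b and Tff1 had 69.01, 267 and 241 in +/b and 205, 718 and 1714 in b/b. All 3 genes were highest in b/b replicates 2 and 3, whereas b/b replicate 1 was close to or within the +/b range. The differences were 2.48 ± 0.59, 3.21 ± 0.98 and 1.83 ± 0.66, with adjusted p of 0.545, 0.702 and 0.779. Tff2, a trefoil peptide of stomach and Brunner glands, had 76.1, 723 and 17.7 in +/b and 117, 261 and 1234 in b/b, with the groups overlapping. Atp4b, a subunit of the proton pump of parietal cells, had 38.8, 141 and 180.3 in +/b and 279, 34.96 and 139 in b/b, with the groups overlapping. Of the list of 10 tested genes of gastric and proximal ductal cells, 6 were above 0, where 45.8% of all genes lay, and 4 at or below it. An unadjusted p under 0.05 was found for 3 with b/b higher and 0 with b/b lower, against 2.75% and 3.39% of all genes. The list median was 0.15 and ran from -0.21 to 0.68 with single arrays left out, and from -0.18 to 1.38 under the other alternatives. The arrays high in gastrokines were also those with the highest signals of Cybrd1 and Pdx1. Their part in the results of other genes was not tested.

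Among the lower genes, several are known from dividing crypt cells. Ascl2, a transcription factor of intestinal stem cells under Wnt control, had 184, 109 and 137 in +/b and 26.2, 23.97 and 58.9 in b/b and a difference of -1.64 ± 0.42 (adjusted p = 0.654). Slc12a2, the basolateral sodium-potassium-chloride cotransporter of crypt cells, had 3899.6, 1714 and 2692 in +/b and 1261, 1094 and 1475 in b/b and a difference of -1.04 ± 0.28. Cenpf, a kinetochore protein of dividing cells, had 368, 301 and 432 in +/b and 98.9, 145 and 235 in b/b and a difference of -1.19 ± 0.29. Cdca7 had 511, 284 and 488 in +/b and 162, 155 and 209 in b/b, with a difference of -1.18 ± 0.27, and Zwilch, part of the spindle checkpoint, had 416, 245 and 251 in +/b and 150.4, 88.9 and 136 in b/b, with -1.17 ± 0.33. These 5 genes were chosen for their lack of overlap. Top2a, topoisomerase II alpha, separated the groups on its dimmer probe set (-1.14 ± 0.32) but not on its brighter one, where +/b replicate 2 at 340 fell within the b/b range and the difference was -0.89 ± 0.43.

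The list of 48 cell cycle genes had no called member. Of these, 40 had a difference at or below 0 and 8 above it, where 45.8% of all genes lay. An unadjusted p under 0.05 was found for 6 with b/b lower and for none with b/b higher, against 3.39% and 2.75% of all genes. The median difference was -0.42, with -0.23 to -0.59 when 1 array was left out. The count of 6 depended on single arrays: it was 19 when replicate 2 of +/b was left out, 12 for replicate 1 of b/b, and 3 for replicate 1 or 3 of +/b or replicate 2 of b/b. Mki67, a marker of cycling cells, had 1649, 661 and 1431 in +/b and 575, 885 and 1142 in b/b, with overlap between the groups, and Mcm3, a subunit of the replicative helicase, had 346, 240.2 and 318 in +/b and 179, 68.3 and 225 in b/b and a difference of -0.99 ± 0.35. Pcna, the sliding clamp of DNA replication, ran against the list, with 3895, 2999 and 4241 in +/b and 2794, 6618 and 6791 in b/b and a difference of 0.45 ± 0.32. Of 14 crypt stem and progenitor genes, 12 were at or below 0 and 2 above it, where 45.8% of all genes lay. The list median was -0.50, and 4 genes had an unadjusted p under 0.05, all lower, against 3.39% of all genes. The 4 became 2 without +/b replicate 1 and 6 without both arrays deposited unscaled, and the median ran from -0.29 to -0.61 with single arrays left out. Besides Ascl2 and Slc12a2 these were Lrig1 (-0.65 ± 0.29) and Aqp4 (-0.83 ± 0.39). Lgr5, the marker of the stem cell itself, was dim, with 65.1, 159.9 and 18.7 in +/b and 88.9, 9.81 and 8.997 in b/b. In jejunum the medians of the cell cycle and crypt lists were -0.28 and -0.37. There 44 of 48 and 13 of 14 genes were at or below 0, against 56.6% of all genes. All 30 ribosomal protein genes tested were also at or below 0 in jejunum.

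Polr1b, a subunit of RNA polymerase I, had 196, 223 and 194 in +/b and 66.4, 107 and 86.8 in b/b and a difference of -1.12 ± 0.32. Ddx21, a nucleolar helicase, had 447, 423 and 308 in +/b and 206, 205 and 138 in b/b on the ranked probe set and a difference of -1.04 ± 0.27, with -0.86 ± 0.31 on the other. Mrm3, a methyltransferase of mitochondrial ribosomal RNA, had 216, 239 and 244 in +/b and 39.5, 137 and 59.9 in b/b and a difference of -1.53 ± 0.40. The 30 ribosomal protein genes tested had a median of -0.16 and no member with an unadjusted p under 0.05. Hspd1, the mitochondrial chaperonin, had 15087, 9567 and 11360.1 in +/b and 8394, 6566 and 8361 in b/b, with no overlap and a difference of -0.61 ± 0.23.

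Genes of fatty acid oxidation were represented by Eci1, an isomerase of unsaturated fatty acids, with 2331, 3878 and 2613 in +/b and 1381, 1930.5 and 1065 in b/b and a difference of -1.01 ± 0.25 (adjusted p = 0.554). Slc27a2, a fatty acid transporter and very long chain acyl-CoA synthetase, had 1449.99, 2155 and 1473 in +/b and 728, 892 and 751 in b/b and a difference of -1.06 ± 0.31. Angptl4, a secreted inhibitor of lipoprotein lipase that fasting and fatty acids induce, had 618, 962 and 1158 in +/b and 245, 517 and 493 in b/b and a difference of -1.12 ± 0.29. These genes too were chosen for their lack of overlap. Of 27 genes of fatty acid oxidation and ketogenesis, 6 were above 0, where 45.8% of all genes were, with a median of -0.19 and with -0.18 in jejunum. The median ran from -0.30 to -0.12 with single arrays left out (+/b replicate 3 and b/b replicate 3) and was -0.06 without both arrays of high pancreas markers. Acot2 (-0.95 ± 0.29) and Decr1 (-0.85 ± 0.27) had an unadjusted p under 0.05 beside Eci1, and Echs1 had one in the other direction (0.70 ± 0.28). These 3 lower genes of 27 stand against 3.39% of all genes, and they were 5 without b/b replicate 1 and 2 without both pancreas-rich arrays. Pck1, the gluconeogenic enzyme, had 13228, 7344 and 6372 in +/b and 6266, 1732 and 4072 in b/b and a difference of -1.26 ± 0.44.

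The remaining lower genes belong to various pathways. Hacd3, an enzyme of very long chain fatty acid elongation, had the smallest p of all lower genes on 1383587_at, with 474, 586 and 812 in +/b and 187, 220.4 and 283 in b/b and a difference of -1.36 ± 0.24 (adjusted p = 0.111). Its brighter probe set gave only -0.27 ± 0.25. Ero1b, an oxidoreductase of the endoplasmic reticulum, had 357, 415 and 363 in +/b and 185, 147 and 139 in b/b and a difference of -1.19 ± 0.23. Klk10, a kallikrein-related peptidase, had 561, 1004 and 669.9 in +/b and 305, 267 and 235 in b/b and a difference of -1.38 ± 0.30. Folr1, a folate receptor, had 421, 1128 and 530.3 in +/b and 274, 197 and 198 in b/b and a difference of -1.45 ± 0.37. Hp, encoding haptoglobin, the plasma protein that binds free hemoglobin, had 79.4, 255 and 232 in +/b and 40.5, 46.8 and 40.7 in b/b and a difference of -1.67 ± 0.47. Nedd4, a ubiquitin ligase, had 274, 155 and 177 in +/b and 43.2, 54.2 and 40.7 in b/b and a difference of -1.78 ± 0.44, and its other 4 probe sets gave -0.82 to -1.17. For Sirpa, Fhl1, Tbl1xr1, Rrp1b, Sema6a, Sync and Adnp other probe sets of the gene gave differences nearer to 0 or of the other sign, so that these genes rest on 1 probe set. For Sema6a the ranked probe set gave -1.67 ± 0.45 and the others 0.52 to 1.28.

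Hypoxia-inducible factors are transcription factors whose alpha subunits are marked for breakdown by prolyl hydroxylases when oxygen and iron suffice. Epas1, encoding HIF-2 alpha, had 5362, 2447 and 3316 in +/b and 5114, 7523 and 8229 in b/b, with +/b replicate 1 inside the b/b range, and a difference of 0.95 ± 0.37 (adjusted p = 0.789). On its dim probe set the difference was 0.47 ± 0.48. Hif1a, encoding HIF-1 alpha, had 2098, 3027 and 4169.5 in +/b and 1591, 1751 and 1756 in b/b. Its b/b arrays lay below all +/b arrays, with a difference of -0.81 ± 0.25 (adjusted p = 0.702). The prolyl hydroxylases Egln1 and Egln2 differed by -0.00 and 0.15. Egln3, itself a known target of the factors, had 1291, 1913 and 1413 in +/b and 1848, 4023 and 3791 in b/b, with b/b replicate 1 inside the +/b range and a difference of 1.00 ± 0.28 (adjusted p = 0.66).

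None of the 33 tested target genes of hypoxia-inducible factors was called. Of them, 27 had a difference above 0, where 45.8% of all genes did, and 7 had an unadjusted p under 0.05, all with b/b higher, against 2.75% of all genes. The 7 became 4 without b/b replicate 2 and 6 to 8 without any other single array. On the brightest probe set of each target, the b/b arrays lay above all +/b arrays in 8, as in 3.38% of all genes. In none did they lie below, against 5.53% of all genes. The median was 0.25, with 0.22 to 0.33 when single arrays were left out. Cybrd1, Slc11a2, Slc40a1 and Tfrc, which are also known targets, were not part of this list. Angptl4 (-1.12 ± 0.29) was not part of it either. Ankrd37 had 198, 254 and 128 in +/b and 272, 444 and 616 in b/b and a difference of 1.11 ± 0.33. Car9, carbonic anhydrase 9, had 1937, 1626 and 1951 in +/b and 1969, 4109 and 3832 in b/b, so that b/b replicate 1 exceeded the +/b arrays by little, and a difference of 0.77 ± 0.25. P4ha1, a collagen prolyl hydroxylase, had 279, 102 and 170.00 in +/b and 288, 377 and 507 in b/b and a difference of 1.09 ± 0.39. The mitophagy receptors Bnip3l and Bnip3 had differences of 0.51 ± 0.19 and 0.77 ± 0.30, and Bhlhe40 of 0.74 ± 0.29. Of the glycolytic targets Aldoa gave 0.63 ± 0.31, Pgk1 0.46 ± 0.26 on its brighter and 0.73 ± 0.21 on its dimmer probe set, Ldha -0.17 ± 0.34 and Eno1 -0.03 ± 0.30. Vegfa, the endothelial growth factor, gave 0.19 and -0.28 on its probe sets. Other targets also differed between the brighter and the dimmer probe set. Pfkfb4 gave 0.11 ± 0.22 and -0.61 ± 0.27, Mxi1 0.24 and -0.45, and Higd1a 0.08 and 0.67. The dimmer ones of Pfkfb4 and Higd1a had an unadjusted p under 0.05. In jejunum 28 of the 33 were above 0, against 43.4% of all genes, with a median of 0.15 and none with an unadjusted p under 0.05.

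**Figure D3:**
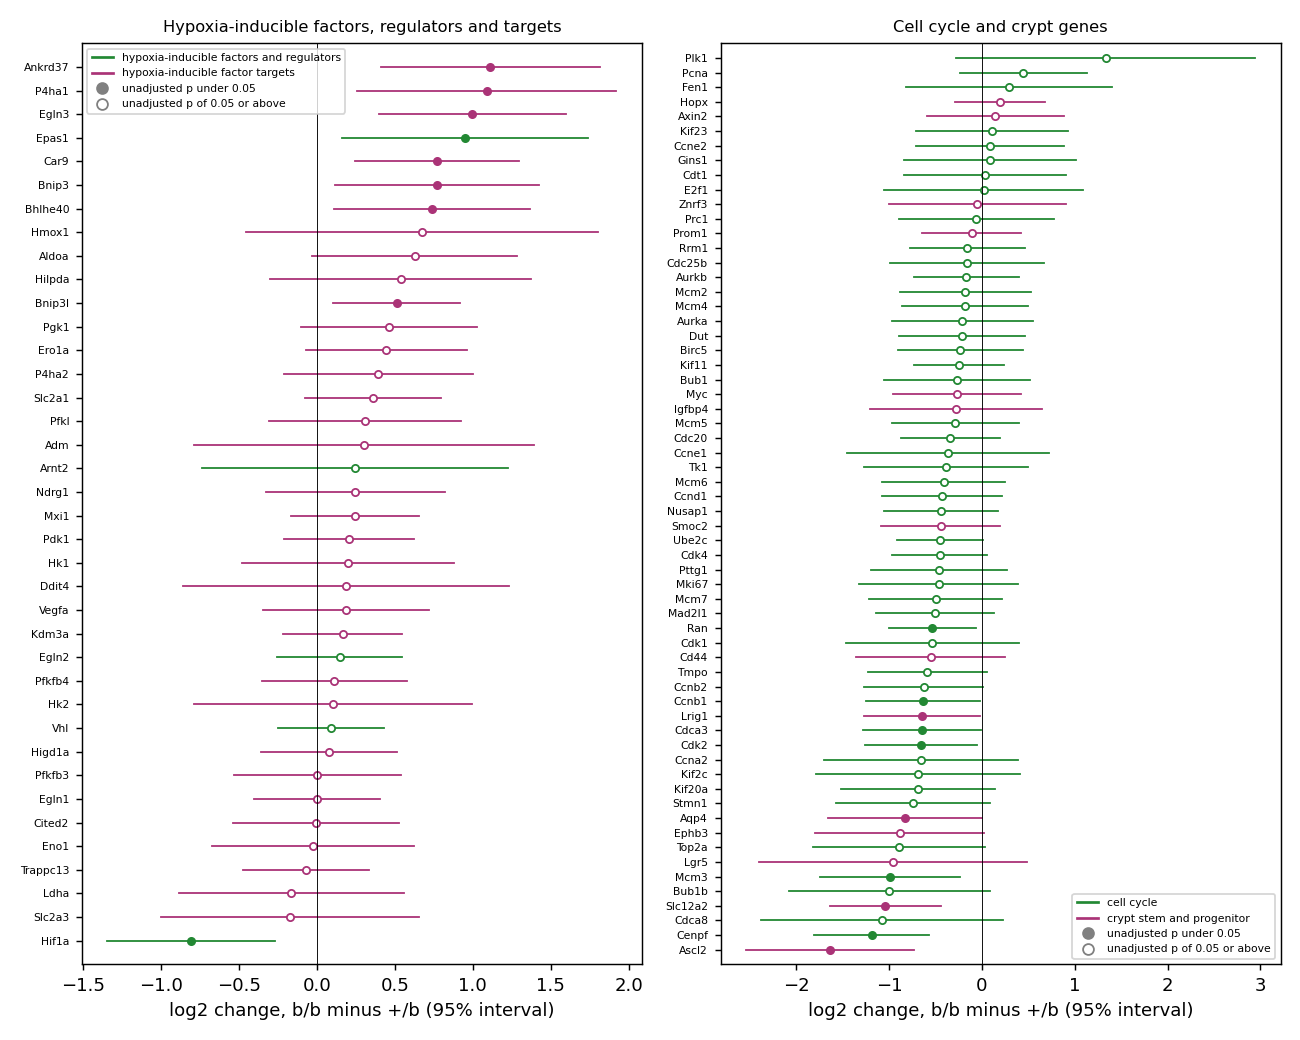
Points are log2 differences (b/b minus +/b in duodenum) with 95% intervals of the limma fit, unadjusted for the number of genes, on the left for the hypoxia-inducible factors, their regulators and 33 targets and on the right for 48 cell cycle and 14 crypt genes. Filled points have an unadjusted p under 0.05. Filled target genes lie to the right of 0 and Hif1a to the left, while filled cell cycle and crypt genes lie to the left of 0.

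Further genes of transport and secretion with an unadjusted p under 0.05 follow, none of them called. Car2, the carbonic anhydrase of both enterocytes and red cells, had 5526, 4389 and 5388 in +/b and 6896, 10422 and 9032 in b/b, with no overlap and a difference of 0.77 ± 0.21 (adjusted p = 0.66). Atp7a, the copper exporter of the basolateral membrane, had 1283, 833 and 2206 in +/b and 1306, 3839.9 and 5175 in b/b, with high values in b/b replicates 2 and 3 and a difference of 1.14 ± 0.46. On its other probe sets the differences were 1.59 ± 0.62 and 0.61 ± 0.49. Slc30a10, a manganese exporter, had 1866, 1493 and 3510.5 in +/b and 2769, 4399.6 and 5889 in b/b and a difference of 0.95 ± 0.32, with b/b replicate 1 inside the +/b range. Slc39a8, an importer of zinc, manganese and iron, had 2288, 1679.6 and 1822 in +/b and 1484, 1535 and 1196 in b/b and a difference of -0.45 ± 0.18, the b/b arrays lying below the +/b arrays. Slc19a1, the reduced folate carrier, had 2491, 1692 and 1948 in +/b and 2992, 3042 and 3472 in b/b, with no overlap and a difference of 0.64 ± 0.24. Aqp3, a water and glycerol channel, had 485, 618 and 309 in +/b and 327, 156 and 118 in b/b and a difference of -1.23 ± 0.36. Sct, the hormone secretin of duodenal S cells, had 1111, 1122 and 869.9 in +/b and 1640.2, 1629.9 and 1533 in b/b, and all b/b arrays exceeded all +/b arrays, with a difference of 0.63 ± 0.20. The 14 tested enteroendocrine genes had no common direction, with 7 above 0, 7 at or below it, a median of 0.04 and a lowest difference of -1.23. An unadjusted p under 0.05 was found for 1 of them in each direction, against 2.75% of all genes higher and 3.39% lower. Calcium transport had a list median of 0.47 over 7 genes, led by the basolateral calcium pump Atp2b1 (0.90 ± 0.39). That median ran from 0.27 to 0.70 with single arrays left out and was 0.097 without both arrays deposited unscaled.

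Large groups of intestinal genes had medians near that of all genes. These were the 46 oxidative phosphorylation genes (-0.04), 48 antioxidant and glutathione genes (0.03), 14 brush border peptidases (-0.05), 10 disaccharidases and hexose transporters (0.04), 26 genes of the unfolded protein response (-0.03) and 14 tight junction genes (0.04). None of these lists had a called gene. The median of the brush border peptidases moved between -0.38 and 0.21 with single arrays left out. The 21 cholesterol synthesis genes had 18 members above 0, where 45.8% of all genes lay. Their median was 0.33, but without b/b replicate 3 it was -0.05 and without b/b replicate 1 it was 0.67. The 19 enterocyte markers had a median of -0.14, which moved between -0.61 and 0.20 with single arrays left out.

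**Figure D4:**
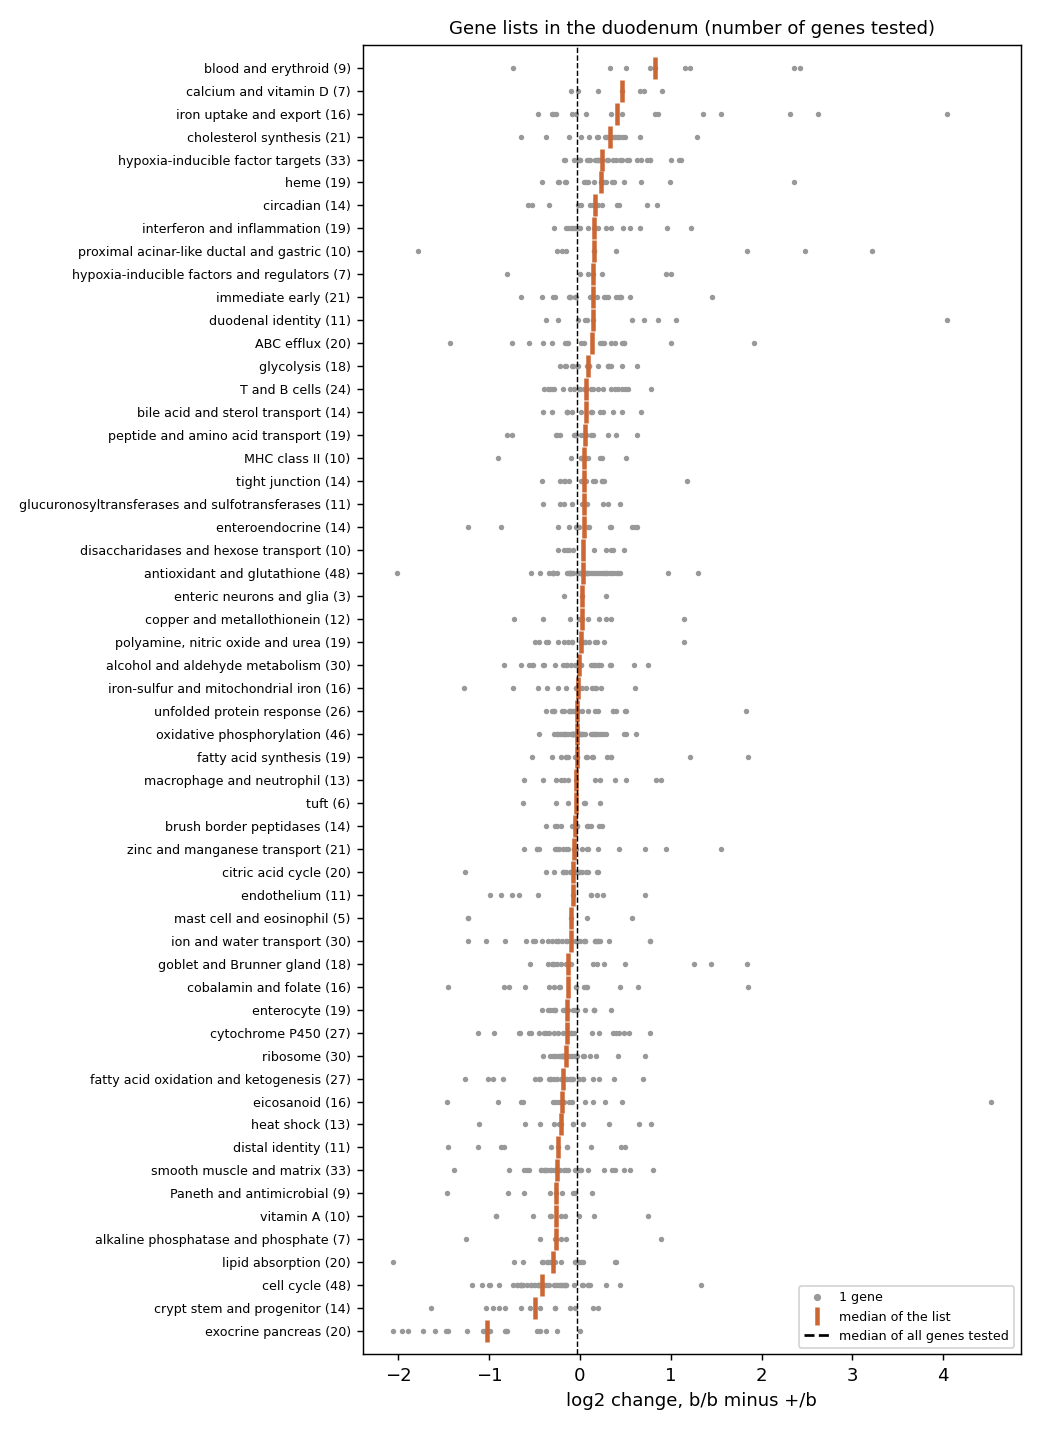
Each grey point is the log2 difference (b/b minus +/b in duodenum) of 1 tested gene, grouped by gene list, with the number of genes tested in parentheses. Orange bars mark the list medians, ordered from the highest (blood and erythroid, 0.82) to the lowest (exocrine pancreas, -1.03), and the dashed line marks the median of all genes at -0.03.

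Markers of other cells that a scrape can hold were examined in the same way. The 20 exocrine pancreas genes had the lowest median, -1.03, but it came from few arrays. Prss1, a trypsinogen, had 63.8, 27849 and 50.2 in +/b and 325, 173 and 1340.2 in b/b, and Amy2a3, a pancreatic amylase, had 5.47, 26925 and 25.4 in +/b and 122, 90.3 and 739.9 in b/b. The +/b replicate 2 array exceeded all others by a wide margin for both genes, and b/b replicate 3 came next. The mean log2 signal of the list was 13.2 in the former and 8.92 in the latter, against 6.12 to 6.91 in the other 4 arrays, and its summed signal ranged from 5550 to 224836 in +/b and from 8072 to 14535 in b/b. Without +/b replicate 2 the median of the list turned to 1.11. When both arrays were left out, Alox15, Cybrd1, Hbb and 1388608_x_at kept their calls, and Slc11a2, 1371102_x_at and 1376344_at lost theirs at changes of 2.55, 2.64 and 3.41.

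**Figure D5:**
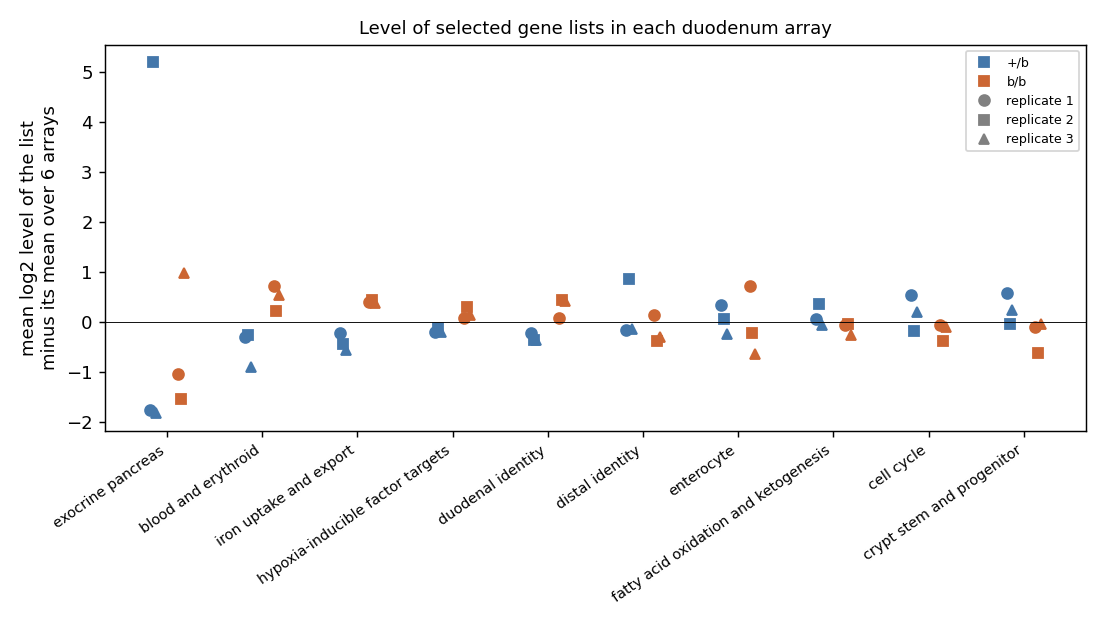
For 10 gene lists, points give the mean log2 level of each duodenum array minus the mean of that list over the 6 arrays, with the replicate shown by the symbol. The exocrine pancreas list stands apart in +/b replicate 2 (top left). In the blood, iron, hypoxia-inducible factor and duodenal identity lists every b/b array (orange) lies above every +/b array (blue). The blood list includes the called gene Hbb, and the iron and duodenal identity lists include the called gene Cybrd1. In the crypt list every b/b array lies below every +/b array, but only just.

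Mast cell proteases differed in direction, and none was called. Cpa3, carboxypeptidase A3, had 244, 288 and 257 in +/b and 51.3, 154 and 130.3 in b/b and a difference of -1.23 ± 0.37, and Mcpt1, a chymase of mucosal mast cells, had 1427, 735 and 738 in +/b and 592, 473 and 195 in b/b and a difference of -1.23 ± 0.39, both with every b/b array below every +/b array. Mcpt9 had 449.96, 399 and 449.8 in +/b and 935, 649 and 453 in b/b and a difference of 0.57 ± 0.26, and Tpsb2, a tryptase, had 176, 129.8 and 135 in +/b and 335, 96.7 and 110.1 in b/b, with overlap. Median differences were 0.07 for 24 T and B cell genes, 0.05 for 10 genes of MHC class II, -0.04 for 13 macrophage and neutrophil genes, -0.25 for 33 smooth muscle and matrix genes, -0.08 for 11 endothelial genes and -0.13 for 18 goblet cell and Brunner gland genes. Of the interferon genes Oas1a had 172, 199 and 181 in +/b and 364, 316 and 793 in b/b, with no overlap and a difference of 1.23 ± 0.42.

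The called genes were set beside their values in jejunum. Alox15 had jejunum signals of 66.2, 18.8 and 51.3 in +/b and 689, 547 and 628 in b/b, and a difference of 3.46 ± 0.36 there. Hbb had 2757, 1708 and 2159 and 11201, 9562 and 13456, with a difference of 2.37 ± 0.26. Both passed the threshold in jejunum too (adjusted p = 0.00236 each), where 6 probe sets were called (0.0339%). Alas2, not called in duodenum, was among these 6, with a difference of 2.63 ± 0.41 (adjusted p = 0.0470). Cybrd1 had jejunum signals of 228, 174 and 268 in +/b and 226, 325 and 251 in b/b, and a difference of 0.24 ± 0.41. The called probe set of Slc11a2 differed by 0.21 ± 0.38 and 1376344_at by -0.16 ± 0.48 in jejunum. The brighter probe set of Slc11a2, 1367877_at, differed by 0.98 ± 0.55 there and was not called. The difference between the segments was tested as an interaction, which no probe set passed in the fit of all 12 arrays as independent samples, with 306 at an unadjusted p under 0.05 (1.73%). For Cybrd1 the interaction was -3.80 ± 0.58 (jejunum minus duodenum, adjusted p = 0.252). Blocking on the rat group (fixed), an alternative added after the data were seen, it passed for Cybrd1 (adjusted p = 0.0218) and 1376344_at (0.0223). It did not pass for the called probe set of Slc11a2 (0.155). The call on the interaction thus depended on the fit.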

How the data were processed

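Per the labels, total RNA from duodenum scrapes was biotin-labelled and hybridised by the standard Affymetrix protocol. The deposited value of a probe set is a signal intensity, linear as judged from the values. The submitters' processing notes name MAS5 for 10 of the 12 arrays; no version or setting is given in the sources used here. Each array was multiplied to a 2% trimmed mean of 500. From 31099 probe sets 57 controls were removed, and 17694 whose scaled signal averaged 100 or more over 12 arrays were tested. By the platform annotation 20826 probe sets had 1 gene, 436 several and 9780 none; gene IDs of 20758 were found in RefSeq and 0 symbols changed. Those with several genes name none.

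Values log2(scaled signal + 16) were fitted with 4 group means over 12 arrays in limma 3.58.1 (R 4.3.3; lmFit, eBayes with an intensity trend, 8 residual degrees of freedom), which understates changes of dim genes. The p-values are two-sided and Benjamini-Hochberg adjusted over all 17694 probe sets, with a threshold of 0.05. The fit was tested on simulated data. Only 3 arrays per group limit the precision.

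The 56 gene lists (1391 genes, 940 tested, each by its brightest probe set), and the genes described, were chosen with earlier results of these data known. The rule named all called probe sets, the 25 genes of smallest p in each direction with a log2 difference of at least 1 and no overlap, up to 5 genes of smallest p per list with defining markers, and all probe sets of called genes. Further genes (Pdx1, Slc40a1, Aldoa, Bnip3, Bmp6, Fbxl5, Heph, Hmox1, Fech, Slc46a1, Flvcr1, Slc4a1, Rhd, Mki67, Pcna, Lgr5, Egln1, Egln2, Pgk1, Ldha, Eno1, Vegfa, Atp4b, Tff2, Tpsb2, Prss1, Amy2a3, Dync1i2) were named after their values were seen. Alternatives covered the pseudocount, the filter, the scaling, array weights, blocks, the trend and the arrays left out. Same-numbered duodenum arrays of the genotypes come from different rats, and their deviations correlated at 0.16, -0.06 and 0.12, so they were not treated as pairs. Same-numbered duodenum and jejunum arrays of one genotype correlated at 0.16 to 0.38 and were also fitted as independent. Whether the number marks a shared batch is not stated in the labels.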

Additional observations from a re-analysis of the deposited data

How the results depend on the processing

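The count of 7 called probe sets was within 1.5 times under 17 of 20 alternatives and 5 to 8 with single arrays left out. All called probe sets were higher in b/b in each case. It was 366 without rescaling, where the median of all probe sets was shifted by 1.51, 3 without both arrays deposited unscaled, and 4 without both arrays of high pancreas markers. With the replicate number as a block over the 6 duodenum arrays, 10 probe sets were called, including all 7, and with the rat group as a random block 7. The blocked fit gave 394 lower probe sets at an unadjusted p under 0.05. Arrays of one number come from different rats, and whether it marks a batch was not tested.

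The 1092 probe sets at an unadjusted p under 0.05 became 1693 without the filter, 10909 without rescaling and 536 with 6 arrays alone, and 996 to 1628 with single arrays left out. The 443 higher became 860, 10909 and 237 in these settings, 665 without both unscaled arrays, and 327 to 718 with single arrays left out. The 649 lower became 0 without rescaling, 299 with 6 arrays alone, 318 with median centring, 983 without both pancreas-rich arrays, and 514 to 1024 with single arrays left out. The cause was not tested.

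The interaction passed for 0 probe sets in the fit described and for 2 with array weights, without rescaling, with the rat group as a fixed block and without b/b duodenum replicate 1 (0 to 2 over single arrays left out). Of 2434 values of 123 named probe sets under alternatives, 2365 kept their direction and side of the threshold. The call was lost in 19 and gained in 49, most of them without rescaling. The direction reversed in 1: Slc34a2, a phosphate transporter (-1.26), was 0.21 without both unscaled arrays. Without rescaling, the direction was judged after subtracting the shift of 1.51, while the adjusted p came from the unshifted fit. Reversals there without that subtraction were not counted. Precision is limited by 3 arrays per group, by the multiplied noise of dim probe sets on the unscaled arrays, and by the lack of detection calls.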

Other observations

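Further genes of the lists had non-overlapping groups at an unadjusted p under 0.05 without being called. Gsta1, a glutathione transferase, had 147, 175 and 196 in +/b and 17.6, 3.05 and 139.7 in b/b and a log2 difference of -2.02 ± 0.70 (limma adjusted p = 0.768). Lyrm4, a partner of the cysteine desulfurase of iron-sulfur cluster assembly, had 251, 124 and 315 in +/b and 30.7, 122 and 119 in b/b and a difference of -1.28 ± 0.42. The 16 genes of that pathway had a median of -0.03. Trib3, a stress-induced pseudokinase, had 596, 1199 and 82.3 in +/b and 1214, 1474 and 1765 in b/b and a difference of 1.83 ± 0.62, with +/b replicate 3 far below the other arrays, while its other probe sets gave 0.14 ± 0.22 and 0.41 ± 0.24. Paox, a polyamine oxidase, had 2981, 1148 and 2053 in +/b and 3362, 3658 and 6230.4 in b/b and a difference of 1.14 ± 0.38. Cyp2s1, a cytochrome P450, had 1089, 1559 and 1479.8 in +/b and 2036, 2924 and 2137 in b/b and a difference of 0.77 ± 0.29. Cps1, the first enzyme of the urea cycle, had 14725, 14469 and 16797 in +/b and 10147, 11585 and 11823 in b/b and a difference of -0.45 ± 0.19, the b/b arrays lying below the +/b arrays.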
